A study of Mus musculus with 25 samples.

Results

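Chromatin accessibility was compared between 2 groups of fetus/graft-specific CD8+ T cells (TFGS) of C57BL/6 mice: PD1-negative cells sorted after a pregnancy that followed sensitization (S+P C4) and cells of sensitized mice that were never pregnant (Sensitized). The members were all libraries that carry either label, 8 of the 25 libraries of the series with 4 in each group, and every one of the 13527 merged peaks was tested. All 8 libraries came from T cells of spleen and lymph nodes of female mice that had rejected a skin graft of the 2W-OVA.BALB/c strain, and were sorted on binding of a tetramer that carries an OVA peptide on H-2Kb. The S+P C4 mice then carried a semi-allogeneic pregnancy sired by 2W-OVA.BALB/c males and were sampled after birth, and from them only cells without surface PD1 were collected. The labels name no PD1 gate for Sensitized cells, whereas the study's methods describe sorting of every group into its commonest subsets, so whether Sensitized cells were gated on PD1 is not given in the sources used here. Pregnancy, the time since the graft and any difference in gating cannot be told apart in this comparison. Naive mice had met neither graft nor fetus, N+P C1 cells were the PD1-negative cells of mice pregnant without a prior graft, and S+P C5 (PD1-positive, CD73-positive) and S+P C7 (PD1-positive, CD73-negative) were the other sorts of the sensitized and pregnant mice. Levels in these groups are given as points of reference, Naive and N+P C1 also enter the interaction, and all 25 libraries share the DESeq2 estimate of spread behind the adjusted p.

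ATAC-seq marks open chromatin by letting a transposase cut accessible DNA. In CD8+ T cells, promoters of many genes stay open in every state, whereas distal elements, many of them enhancers, open and close as a naive cell becomes an effector or memory cell. Loci of granzymes, chemokines and inhibitory receptors gain open elements in effector and chronically stimulated cells, while elements near genes of lymphoid homing and self-renewal, such as Il7r, Tcf7 and Myb, are most open in naive and memory cells. PD1, the product of Pdcd1, is an inhibitory receptor that rises on stimulated T cells and stays high on exhausted ones.

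The PD1-negative cells of pregnant sensitized mice differed from Sensitized cells at few peaks in the DESeq2 fit to all libraries, and all but 3 of those peaks lay away from promoters. Peaks that opened were nearest to Eps8l3, Cfap298, Shc4 and Manba and to the effector genes Gzma, Ccl4 and Fasl, of which Gzma and Ccl4 were not called in the fit to the 8 libraries alone. Peaks that closed were nearest to Gpr183, Cxcr4, Myb, Prss12 and Ccdc148. A peak was called when the DESeq2 adjusted p was under 0.1 and the log2 fold change was over 0.9 in size. By that rule 76 peaks opened (0.562% of all tested), 40 closed (0.296%) and 116 were called in all (0.858%). The excess of opening over closing peaks turned when S+P C4 replicate 1 (110 and 124) or 3 (40 and 41) was left out, when Sensitized replicate 3 (50 and 85) or 4 (47 and 59) was, with a replicate block in the 8 libraries (21 and 26), and in 3 of the fits to 7 of the 8 libraries. Without the fold threshold, 422 peaks were higher in S+P C4 (3.12%) and 462 were lower (3.42%). That sum of 884 rested on the fit and on single libraries, with 150 in the fit to the 8 libraries alone, 7010 by limma with quality weights, 4089 when Sensitized replicate 1 was left out and 244 when replicate 4 of S+P C4 was. Libraries of the 2 groups did not overlap at 28 of the 76 opening peaks and 22 of the 40 closing peaks, against 3.96% of all peaks.

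The 9 sequences that follow show the central 300 bases of peaks that the results turn on, read from GRCm39. Capitals mark letters of 5 motifs on either strand, namely TGANTCA (AP-1), TGTGGT (RUNX), CTTTGAA or CTTTGAT (TCF/LEF), TGGAAA (NFAT) and AAAGGTCA (NR4A). The opening peaks shown are 3 that stayed called under every alternative analysis (Eps8l3, Cfap298 and Shc4) and 2 near effector genes, and the windows of Cfap298 and Shc4 hold none of these letters.
Eps8l3 peak, chr3:107735195-107735494, plus strand: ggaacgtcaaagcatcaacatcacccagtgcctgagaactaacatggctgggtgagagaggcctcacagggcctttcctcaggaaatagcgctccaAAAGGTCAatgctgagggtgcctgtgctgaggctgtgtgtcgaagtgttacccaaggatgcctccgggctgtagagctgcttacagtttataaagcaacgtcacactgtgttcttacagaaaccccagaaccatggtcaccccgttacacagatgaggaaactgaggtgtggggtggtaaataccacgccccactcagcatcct
Cfap298 peak, chr16:90750167-90750466, plus strand: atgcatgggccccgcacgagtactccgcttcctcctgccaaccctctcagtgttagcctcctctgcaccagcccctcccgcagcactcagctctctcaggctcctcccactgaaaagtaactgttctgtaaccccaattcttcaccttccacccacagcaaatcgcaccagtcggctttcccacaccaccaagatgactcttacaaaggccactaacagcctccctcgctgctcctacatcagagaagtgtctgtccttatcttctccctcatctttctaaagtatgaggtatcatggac
Shc4 peak, chr2:125577564-125577863, plus strand: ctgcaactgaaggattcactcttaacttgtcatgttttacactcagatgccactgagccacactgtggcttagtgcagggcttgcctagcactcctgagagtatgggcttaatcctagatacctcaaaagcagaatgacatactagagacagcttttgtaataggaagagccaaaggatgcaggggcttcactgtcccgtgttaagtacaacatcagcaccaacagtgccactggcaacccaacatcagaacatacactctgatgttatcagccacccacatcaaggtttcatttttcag
Gzma distal peak, chr13:113256903-113257202, plus strand: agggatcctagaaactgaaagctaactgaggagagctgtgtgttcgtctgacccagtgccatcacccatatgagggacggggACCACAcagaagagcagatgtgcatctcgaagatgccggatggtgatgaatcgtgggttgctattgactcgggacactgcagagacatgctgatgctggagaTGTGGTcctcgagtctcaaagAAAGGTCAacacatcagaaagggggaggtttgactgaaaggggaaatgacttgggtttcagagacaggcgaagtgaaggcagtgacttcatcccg
Fasl peak, chr1:161514757-161515056, plus strand: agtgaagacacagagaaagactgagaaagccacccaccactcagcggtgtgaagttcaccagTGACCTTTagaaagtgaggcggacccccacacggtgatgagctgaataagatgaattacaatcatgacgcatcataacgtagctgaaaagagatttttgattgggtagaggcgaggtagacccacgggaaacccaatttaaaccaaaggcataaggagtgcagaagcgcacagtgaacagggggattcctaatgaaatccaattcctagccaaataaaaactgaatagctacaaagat

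Of the peaks lower in S+P C4, those shown are Ccdc148, the only closing peak among the named ones that stayed called under every alternative, the strongest Gpr183 peak, the Cxcr4 peak and a peak near Ifng that was not called, because its change was under the fold threshold, but was even across libraries.
Ccdc148 peak, chr2:58796971-58797270, plus strand: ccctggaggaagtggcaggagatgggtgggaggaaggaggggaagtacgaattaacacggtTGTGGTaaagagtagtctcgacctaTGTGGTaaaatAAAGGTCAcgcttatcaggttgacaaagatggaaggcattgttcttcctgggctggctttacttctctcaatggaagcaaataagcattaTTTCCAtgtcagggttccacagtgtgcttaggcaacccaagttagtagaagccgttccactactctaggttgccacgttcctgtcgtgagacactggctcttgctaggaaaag
Gpr183 strongest peak, chr14:122225051-122225350, plus strand: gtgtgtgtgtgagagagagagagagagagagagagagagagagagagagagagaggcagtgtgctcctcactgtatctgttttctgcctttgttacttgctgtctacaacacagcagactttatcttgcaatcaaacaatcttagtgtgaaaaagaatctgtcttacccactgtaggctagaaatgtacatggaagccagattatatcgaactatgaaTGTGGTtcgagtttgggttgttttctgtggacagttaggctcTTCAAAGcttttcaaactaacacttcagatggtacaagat
Cxcr4 peak, chr1:128710003-128710302, plus strand: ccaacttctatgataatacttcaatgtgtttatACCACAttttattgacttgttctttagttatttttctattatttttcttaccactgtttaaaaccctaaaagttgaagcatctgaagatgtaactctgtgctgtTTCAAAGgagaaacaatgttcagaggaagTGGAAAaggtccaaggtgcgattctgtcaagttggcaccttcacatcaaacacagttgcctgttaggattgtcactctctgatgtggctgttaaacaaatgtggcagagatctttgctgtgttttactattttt
Ifng peak, chr10:118254944-118255243, plus strand: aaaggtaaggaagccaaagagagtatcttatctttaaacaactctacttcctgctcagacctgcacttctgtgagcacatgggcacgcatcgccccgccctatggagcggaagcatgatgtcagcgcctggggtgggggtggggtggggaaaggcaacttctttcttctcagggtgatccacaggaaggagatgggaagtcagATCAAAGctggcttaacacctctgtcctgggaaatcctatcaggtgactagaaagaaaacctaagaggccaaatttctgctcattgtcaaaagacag

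The 8 libraries did not separate by group when whole profiles were compared, which bears on every value that follows. The correlation of log2 normalized read counts had a median of 0.923 within S+P C4 (range 0.81 to 0.964 over 6 pairs), 0.876 within Sensitized (0.79 to 0.985 over 6 pairs) and 0.907 between the groups (0.785 to 0.953 over 16 pairs). Sensitized replicates 3 and 4 had profiles near the mean Naive profile (r of 0.955 and 0.92), and Sensitized replicates 1 and 2 did not (0.703 and 0.746). S+P C4 replicate 1 also stood near Naive (0.901), and replicates 2 to 4 were farther (0.839, 0.698 and 0.751). The depth was 2430890 counts in peaks for S+P C4 replicate 1 and 5775115 to 15041041 for the other 7 libraries. Every pair of libraries within a group differed by more than counting noise, with a chi-square per degree of freedom of at least 5.07.

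**Figure D1:**
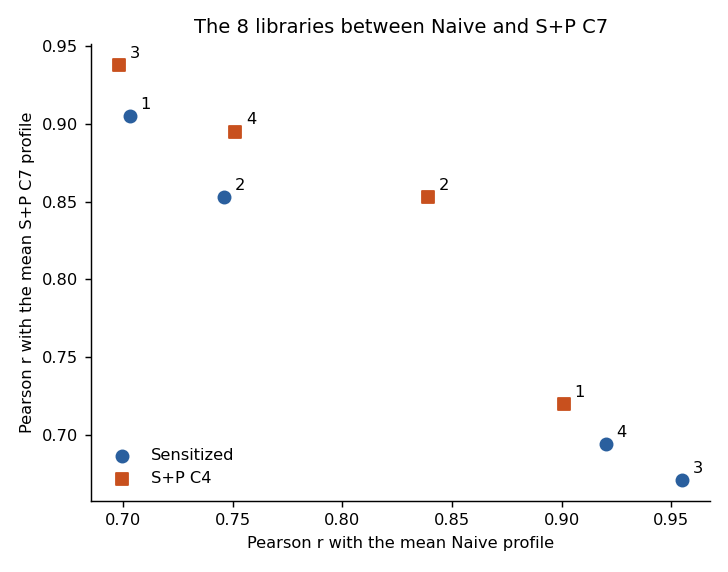
Each point is 1 of the 8 libraries, with its replicate number. The horizontal axis is Pearson r with the mean Naive profile and the vertical axis Pearson r with the mean S+P C7 profile, both over log2 normalized read counts of 13527 peaks. Sensitized replicates 3 and 4 and S+P C4 replicate 1 lie near Naive (r of 0.901 to 0.955), and the groups do not form separate clouds.

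The strongest opening peak lay 49200 bp from the start of Eps8l3, a gene for an epithelial actin regulator, between genes on chromosome 3 (chr3:107735085-107735605). The start of Csf1, which encodes a macrophage growth factor, was 67539 bp away. Normalized read counts were 98.7, 339, 422 and 508 in S+P C4 and 24.2, 11, 7.45 and 7.59 in Sensitized. The groups were far apart, and the lowest S+P C4 value belonged to replicate 1. The means were 342 ± 176 (SD, n = 4) and 12.6 ± 7.94 (SD, n = 4), a log2 fold change of 4.77 ± 0.49 (SE; DESeq2 adjusted p 2.64e-18). Among the other groups, the mean was 439 ± 166 in S+P C7, 144 ± 56.3 in S+P C5 (SD, n = 4), and 4.64 ± 1.85 in Naive cells (SD, n = 3).

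The next peak in rank lay in an intron of Synj1, a phosphoinositide phosphatase gene, 18237 bp from the start of Cfap298, a gene of ciliary assembly (chr16:90750128-90750506). It held 54.4, 108, 191 and 206 normalized read counts in S+P C4. In Sensitized it held 13.3, 13.3, 5.73 and 16.3, so that every S+P C4 library was above every Sensitized one. The log2 fold change was 3.55 ± 0.42 (DESeq2 adjusted p 2.89e-13). The mean in Naive cells was 3.93 ± 1.86 (SD, n = 3), and in S+P C7 it was 288 ± 56.7 (SD, n = 4).

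Shc4, a gene for a signaling adaptor, had a peak 11585 bp from its start (chr2:125577333-125578095) at 157, 179, 215 and 295 in S+P C4. Sensitized libraries were even and low at 85.4, 53.4, 74 and 73.8, and no S+P C4 library came near them. The log2 fold change of 1.58 ± 0.28 (DESeq2 adjusted p 1.67e-05) had a smaller SE than the changes at Eps8l3 and Cfap298. The CD73-positive and CD73-negative sorts, S+P C5 and C7, were higher again, at 456 ± 170 and 449 ± 119 (SD, n = 4), with log2 differences from S+P C4 of 1.08 and 1.06 (DESeq2 adjusted p 0.00147 and 0.0013).

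Manba, the gene of the lysosomal enzyme beta-mannosidase, had an opening peak in its own intron (chr3:135233270-135233995). It held 170, 338, 494 and 501 normalized read counts in S+P C4 and 143, 145, 41.9 and 32.5 in Sensitized. The groups did not overlap, and S+P C4 replicate 1 and Sensitized replicates 1 and 2 came closest to each other. The log2 fold change was 2.06 ± 0.42 (DESeq2 adjusted p 0.000342). Peaks near Pkdcc (a secreted tyrosine kinase), Stx6 (a vesicle fusion protein), Setbp1 and Mbp also opened without overlap, with log2 fold changes of 1.76, 1.27, 2.37 and 2.02 (DESeq2 adjusted p 0.000342, 0.000377, 7.93e-05 and 6.95e-05). At Pkdcc the S+P C4 mean of 210 ± 51.2 was well under the 815 ± 164 of S+P C5 and 800 ± 215 of S+P C7 (SD, n = 4), and both differences passed the test (DESeq2 adjusted p 1.87e-06 and 2.61e-06).

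**Figure D2:**
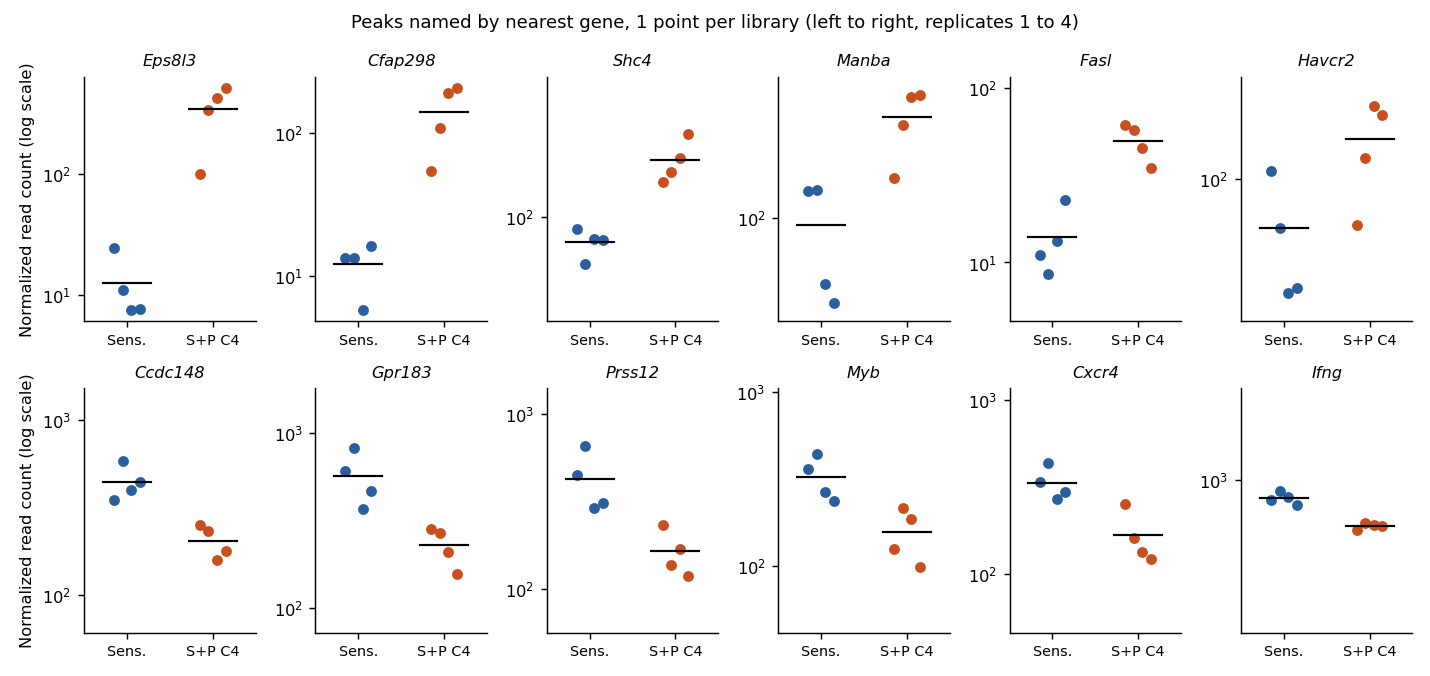
Normalized read counts on a log scale at 12 peaks, labelled with the nearest gene, with 1 point per library and a line at the group mean. Opening peaks fill the upper row and peaks lower in S+P C4 the lower row. Only at Havcr2 do the points of the groups overlap, where Sensitized replicate 1 held 112 and S+P C4 replicate 1 held 54.4.

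Effector genes gave 4 opening peaks at 3 genes of the 54 peaks on a list of cytotoxic and effector molecules, and no closing peak, where 0.562% of all peaks opened and 0.296% closed. Without the fold threshold 6 of the 54 were higher (11.1%, beside 3.12% of all peaks) and 2 were lower (3.7%, beside 3.42%), the latter near Ifng and Il21. The Fasl peak, 101168 bp from the start of the death ligand gene (chr1:161514626-161515189), was at 61.2, 57.1, 45.3 and 34.9 in S+P C4 and 11, 8.63, 13.2 and 22.8 in Sensitized. Its groups did not overlap (log2 fold change 1.80 ± 0.46, DESeq2 adjusted p 0.00819), and its level was low beside the 268 ± 151 of S+P C5 (SD, n = 4). The 15 other Fasl peaks were not called.

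Gzma encodes granzyme A, a serine protease of cytotoxic granules, and 2 of its 4 peaks opened. The distal one (chr13:113256580-113257527), 19529 bp from the gene's start, had 231, 340, 361 and 377 in S+P C4 and 246, 234, 82 and 117 in Sensitized. The other, in an intron of Cdc20b (chr13:113226851-113227684), had 184, 447, 542 and 533 against 297, 206, 55 and 81.4. At both peaks Sensitized replicates 1 and 2 were as high as S+P C4 replicate 1 or higher, and the gap came from the other libraries. Log2 fold changes were 0.96 ± 0.27 and 1.42 ± 0.50 (DESeq2 adjusted p 0.0184 and 0.0781). In the fit to the 8 libraries alone neither passed (DESeq2 adjusted p 0.275 and 0.216).

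The Ccl4 peak, near the gene of a chemokine that effector cells release (chr11:83548110-83548929), had 163, 241, 447 and 373 in S+P C4 and 257, 153, 51 and 71.1 in Sensitized. Sensitized replicate 1 exceeded S+P C4 replicate 1 here, and the other Sensitized libraries did not. Its log2 fold change was 1.21 ± 0.37 (DESeq2 adjusted p 0.0409), and 0.339 was its adjusted p in the fit to the 8 libraries alone. The peak near Gzmb, the granzyme B gene, that had the smallest p was 398, 276, 409 and 408 in S+P C4 and 328, 229, 257 and 251 in Sensitized. Its log2 fold change of 0.48 ± 0.15 was under the fold threshold (DESeq2 adjusted p 0.0516, and 0.321 in the fit to the 8 libraries alone).

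Ifng, the interferon-gamma gene, had a log2 fold change below 0 at 5 of its 6 peaks, of which 1 passed the adjusted p. The peak 21857 bp from its start (chr10:118254674-118255515) held 517, 567, 553 and 548 in S+P C4 and 765, 862, 797 and 720 in Sensitized. The libraries within each group were close together here and the groups did not overlap. The log2 fold change was -0.52 ± 0.10 (DESeq2 adjusted p 0.000141) and stayed between -0.56 and -0.46 under all alternatives.

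A list of co-inhibitory receptors and linked genes gave 2 opening peaks and 0 closing peaks. It also holds the enzyme genes Nt5e and Entpd1, the ligand gene Pdcd1lg2 and the folate receptor family gene Izumo1r. Of 42 peaks nearest to 15 genes of this list, 3 were higher in S+P C4 without the fold threshold (7.14%, beside 3.12% of all peaks). Another 8 were lower (19.0%, beside 3.42%). The median log2 fold change was -0.26, against -0.02 over all peaks and -0.093 over all peaks outside promoters. The lower ones lay near Btla, Ctla4, Izumo1r, Nt5e (2 peaks), Pdcd1, Pdcd1lg2 and Tigit. Near Pdcd1, the gene of the receptor used to gate S+P C4, all 5 peaks had a log2 fold change below 0 and 1 passed the adjusted p. That peak, 39428 bp from the gene's start (chr1:94019291-94020190), held 504, 432, 397 and 425 in S+P C4 and 526, 806, 689 and 687 in Sensitized (log2 fold change -0.63 ± 0.19, DESeq2 adjusted p 0.0318). Its groups did not overlap, with Sensitized replicate 1 only just above S+P C4 replicate 1.

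Nt5e encodes CD73, an ectoenzyme that makes adenosine, and its 5 peaks had a median log2 fold change of -0.40. The one with the smallest p held 551, 602, 422 and 411 in S+P C4 and 581, 910, 677 and 742 in Sensitized (log2 fold change -0.56, DESeq2 adjusted p 0.0466). All 8 peaks of Tox, a factor that drives the exhausted state, were below 0 with a median of -0.31. The Tox peak named by its p held 225, 222, 158 and 222 against 286, 329, 259 and 286, so that the groups did not overlap (log2 fold change -0.49, DESeq2 adjusted p 0.0173). At Ctla4 the peak with the smallest p had a log2 fold change of -0.58 (DESeq2 adjusted p 0.0781), with Sensitized replicate 1 at 641 and S+P C4 replicate 1 at 667. The Nt5e, Tox and Ctla4 peaks did not pass in the fit to the 8 libraries alone (DESeq2 adjusted p 0.205, 0.26 and 0.232).

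The opening peaks of the co-inhibitory list lay in introns of Havcr2, which encodes TIM-3, and Entpd1, which encodes CD39, the enzyme upstream of CD73. The Havcr2 peak (chr11:46365060-46365378) held 54.4, 132, 263 and 233 in S+P C4 and 112, 52.6, 22.4 and 23.9 in Sensitized. The Entpd1 peak (chr19:40654254-40654655) held 81.7, 180, 233 and 214 against 117, 64.3, 7.45 and 25.5. In each, 1 Sensitized library exceeded S+P C4 replicate 1, and the log2 fold changes were 1.71 ± 0.48 and 1.74 ± 0.54 (DESeq2 adjusted p 0.024 and 0.0434). The call was lost at both when the fit held the 8 libraries alone (adjusted p 0.225 and 0.296). Both peaks were also high in S+P C7, with means of 262 ± 30.3 and 322 ± 46.1 (SD, n = 4). In S+P C5 they had means of 175 ± 31.5 and 170 ± 42.8 (SD, n = 4). They were low in Naive cells, with means of 11.4 ± 3.13 and 5.97 ± 3.28 (SD, n = 3). A Tigit peak in the gene's intron was 136, 81.8, 97.6 and 104 against 72.1, 56.5, 57.3 and 77.6, higher in every S+P C4 library by a log2 fold change of 0.63 ± 0.20 (DESeq2 adjusted p 0.0558, and 0.36 in the fit to the 8 libraries alone). In S+P C5 it reached 352 ± 31.4 (SD, n = 4).

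Transcription factor genes added a few opening peaks. Id2, a repressor that favours effector fate, had 1 opening peak 58410 bp from its start, at 136, 218, 325 and 401 in S+P C4 and 219, 132, 69.4 and 77 in Sensitized (log2 fold change 1.14, DESeq2 adjusted p 0.0227). An intronic Irf2 peak, at a regulator of interferon response, was even within groups at 74.9, 70.1, 93.4 and 77.3 against 45, 36.9, 36.1 and 48.3 (log2 fold change 0.93, DESeq2 adjusted p 0.0606). An intronic Stat3 peak had a log2 fold change of 1.06 (DESeq2 adjusted p 0.0851), with 119, 135, 214 and 123 in S+P C4 and 142, 62, 40.1 and 39.6 in Sensitized, where Sensitized replicate 1 exceeded 3 of the S+P C4 libraries. Of the 44 peaks on the list of Jak, Stat and interferon genes, 4 were higher without the fold threshold (9.09%, beside 3.12% of all peaks) and 0 were lower (beside 3.42%). Id2 and Stat3 were not called in the fit to the 8 libraries alone (DESeq2 adjusted p 0.296 and 0.386), nor was Irf2 (0.105).

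Closing peaks clustered at Gpr183, the receptor for oxysterols that guides lymphocytes within lymphoid organs. All 7 of its peaks had a log2 fold change below 0, 4 of them passed the adjusted p and 3 were called, each in an intron of Ubac2. The peak 22591 bp from the gene's start (chr14:122224760-122225643) held 282, 267, 209 and 157 in S+P C4 and 607, 827, 366 and 467 in Sensitized. Its log2 fold change was -1.33 ± 0.24 (DESeq2 adjusted p 3.28e-05). The peak at 34442 bp (chr14:122236762-122237343) held 221, 154, 214 and 128 against 442, 551, 260 and 333, and the peak at 29459 bp (chr14:122231775-122232363) held 245, 161, 149 and 105 against 287, 423, 300 and 321. None of the 3 overlapped between groups, and the log2 fold changes of the latter pair were -1.17 and -1.05 (DESeq2 adjusted p 0.00072 and 0.00377). The peaks of this locus did not run in parallel over the other sorts. At 34442 bp the PD1-positive sorts C5 and C7 had means of 690 ± 119 and 498 ± 159 (SD, n = 4), above both compared groups, whereas at 22591 bp S+P C7 had 174 ± 36.8.

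Other genes of naive, memory and trafficking programs had single closing peaks. Cxcr4, the receptor for CXCL12, closed at 1 of its 12 peaks, 190109 bp from its start (chr1:128709662-128710644), with 252, 162, 134 and 123 in S+P C4 and 336, 435, 268 and 295 in Sensitized (log2 fold change -1.03 ± 0.24, DESeq2 adjusted p 0.00363). Myb, which sustains self-renewal of stem-like CD8+ T cells, closed at 1 of 4 peaks with 126, 217, 187 and 98.9 against 362, 439, 267 and 236 (log2 fold change -1.05, DESeq2 adjusted p 0.00325). Neither peak overlapped between groups. A peak near Gpr15, a homing receptor, held 245, 200, 180 and 131 against 370, 500, 297 and 336 (log2 fold change -1.02, DESeq2 adjusted p 0.000592). For Il7r, the survival receptor of naive and memory cells, no peak was called. Its peak with the smallest p held 344, 428, 328 and 251 against 507, 563, 544 and 632, without overlap and with a log2 fold change of -0.74 (DESeq2 adjusted p 0.0314).

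The list of naive, stem-like and memory regulators held 162 peaks. Of these 3 were higher without the fold threshold (1.85%, beside 3.12% of all peaks) and 15 were lower (9.26%, beside 3.42%), 4 of the latter at Gpr183 and 3 at Klf3, and the median log2 fold change was -0.13. Tcf7, whose product keeps memory cells multipotent, and Satb1, a chromatin organizer, gave 0 peaks past the adjusted p out of 6 and 12. At the Tcf7 promoter peak the counts were 759, 488, 467 and 422 against 731, 682, 740 and 591, where S+P C4 replicate 1 lay with Sensitized and the other 3 lay below (log2 fold change -0.39, DESeq2 adjusted p 0.186). The Satb1 peak with the smallest p, 316242 bp from the gene's start, was 510, 954, 989 and 948 against 815, 720, 608 and 683 (log2 fold change 0.28, DESeq2 adjusted p 0.421). Of the 12 Satb1 peaks 9 had a log2 fold change below 0, and their median was -0.099.

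Peaks outside the fixed lists closed as firmly. A peak in an intron of Ccdc148 (chr2:58796699-58797544) held 252, 232, 158 and 178 in S+P C4 and 351, 587, 398 and 442 in Sensitized, and its log2 fold change was -1.13 ± 0.22 (DESeq2 adjusted p 0.000186). Prss12, a gene for a secreted serine protease, had an intronic peak at 231, 136, 170 and 119 against 447, 659, 289 and 309 (log2 fold change -1.40 ± 0.30, DESeq2 adjusted p 0.000976). The Prss12 peak was as low in the PD1-positive sorts C5 and C7, at 170 ± 71.5 and 113 ± 34.9 (SD, n = 4), while the Ccdc148 peak was at 464 ± 72.6 in S+P C5. Nup54, Smco4, Apip, Galnt7 and Odc1 were the nearest genes of 5 further closing peaks without overlap, with log2 fold changes of -1.11, -1.01, -1.14, -1.25 and -1.03 (DESeq2 adjusted p 0.00031, 0.000691, 0.00336, 0.00336 and 0.00365). Of these, Odc1 was not called in the fit to the 8 libraries alone (adjusted p 0.161). Closing peaks with overlapping groups included Il15ra, which presents IL-15 (157, 67.5, 66.5 and 48.2 against 300, 314, 111 and 152), and Dusp4, a phosphatase that limits ERK signaling (208, 87, 140 and 59.6 against 366, 410, 163 and 159). Their log2 fold changes were -1.42 and -1.19 (DESeq2 adjusted p 0.0369 and 0.0256), and neither was called in the fit to the 8 libraries alone (0.159 and 0.296).

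Genes that brake T cell receptor signaling had 102 peaks. Without the fold threshold 11 were lower (10.8%, beside 3.42% of all peaks) and 3 were higher (2.94%), with 4 lower peaks at Cblb, a ubiquitin ligase, and 3 at Dusp4. The lists of T cell identity (57 peaks) and of steroid and pregnancy hormone response (23 peaks) had 1 and 2 peaks past the adjusted p in each direction. Over all peaks the shares were 3.12% higher and 3.42% lower. Natural killer type Klr receptors had 2 higher (9.52%) and 0 lower of 21, both near Klrb1c. Chemokine receptors had 0 higher and 2 lower of 28 (7.14%), and costimulatory TNF family members 0 and 3 of 40 (7.5%). The lists of AP-1 and Maf factors (0 higher and 3 lower of 52), cytokine receptors (1 and 4 of 76), adhesion genes (4 and 4 of 75) and exhaustion-linked factors (4 and 7 of 88) are given as counts, with no test of the list. These lists share some genes, among them S1pr1, Il7r and Maf, and a peak was assigned to the nearest gene start, which need not be the gene it acts on.

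A gate can let other cells through, so the loci of other lineages were read as well. Of 10 B cell markers 9 had no peak nearest to them, of 12 myeloid markers 11, and of 9 erythroid markers 8, Lyz2 and Gata1 included. The only peak of each of these lists did not pass the adjusted p, with log2 fold changes of 0.01, 0.19 and -0.003. The natural killer list had 16 peaks near 4 of 7 genes, of which 4, near Gzma and Klrb1c, were higher (beside 3.12% of all peaks), and Ncr1, the defining marker, had none. Its summed normalized read counts ranged from 6567 to 8620 in S+P C4 and from 5875 to 7382 in Sensitized. The list of CD4 and regulatory T cell genes had 10 peaks near 2 of 7 genes, and 0 of them passed the adjusted p. Of the 15 T cell identity genes 14 had peaks.

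A share of the opening peaks rested on a single library. At 17 of the 76 opening peaks S+P C4 replicate 1, the shallowest library, was over 3 times every other S+P C4 library, and at 0 of the 40 closing peaks. The Cdk8 intron peak (chr5:146197757-146198197) held 2320 in this library and 278, 274 and 198 in the others, against 96.3 to 153 in Sensitized. The peak nearest to Gm8797 held 3460 against 401 to 463 in the other S+P C4 libraries, and the peak nearest to Limd1, in an exon of Lars2, held 1630 against 362 to 388. Without that library the log2 fold changes were 1.12, 0.94 and 0.84, and the Limd1 call was lost. Of all 17, 4 stayed called without that library, a count that the choice of these peaks by that library largely fixes. In the fit to the 8 libraries alone DESeq2 gave no adjusted p to 8 of the 17, Cdk8 and Gm8797 included, and of the other 9 only 1, Limd1, was called. Of these 17 peaks 4 lay on unplaced contigs, which hold 5 of the 13527 peaks. Over the series 30 peaks had this pattern and took 3.91% of the counts of S+P C4 replicate 1, against 0.274% to 0.619% of the other 7 libraries. The part of library quality or of repeated sequence in this was not tested.

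The deposited S+P C4 peak list held 16 of those 17 peaks but only 1 of the other 59 opening peaks. The S+P C7 list held 49 of the 59 and the S+P C5 list 35, whereas the Sensitized, Naive and both N+P lists held 0. None of the 40 closing peaks was in the S+P C4 list, and 24 were in the Sensitized list. The S+P C4 list was short, with 3788 entries against 8479 to 11384 in the other 6, so that absence from it says little.

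**Figure D3:**
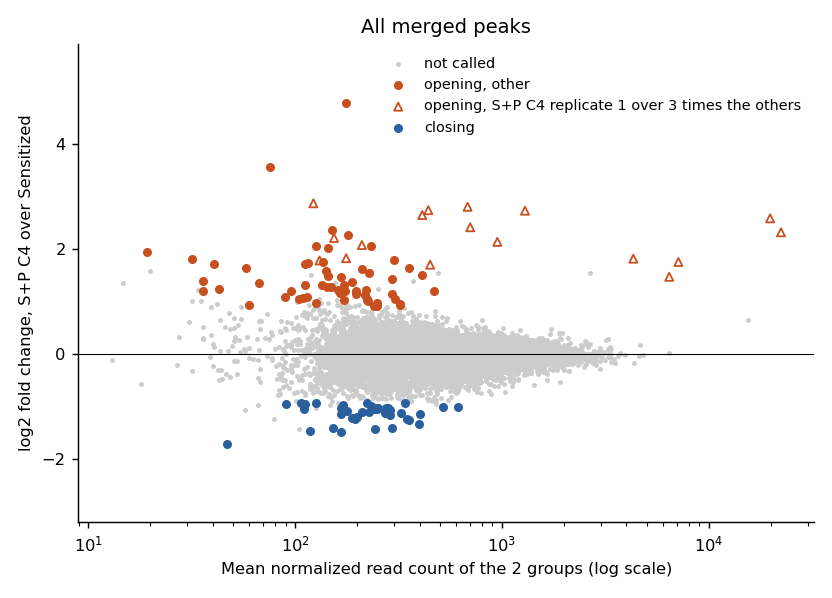
Log2 fold change of S+P C4 over Sensitized against the mean normalized read count of both groups, on a log axis, for all 13527 peaks. Filled circles are the 59 opening and 40 closing peaks, and open triangles are the 17 opening peaks at which S+P C4 replicate 1 was over 3 times the other libraries, several of them with the highest counts of all peaks.

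Setting the 17 peaks aside, the other 59 opening peaks had their lowest levels in Naive and N+P C1 and their highest in S+P C7. Their median level was 21.1 in Naive, 21.3 in N+P C1, 88.3 in Sensitized, 232 in S+P C4, 271 in the C5 sort and 399 in the C7 sort (medians over peaks of group means). Library by library the medians were 126, 234, 310 and 285 in S+P C4 and 142, 108, 44.7 and 55.9 in Sensitized. Sensitized replicate 1 thus exceeded S+P C4 replicate 1, and the 2 Sensitized libraries nearest to Naive were the lowest. The 40 closing peaks had medians of 185, 140, 149 and 106 in S+P C4 and 334, 441, 182 and 228 in Sensitized, so that S+P C4 replicate 1 was just above Sensitized replicate 3. The closing peaks had a median of group means of 340 in S+P C5, 198 in S+P C7 and 117 in Naive. These peaks were chosen on S+P C4 and Sensitized, so their levels in these 2 groups are a description, and comparisons with the PD1-positive sorts share the S+P C4 libraries and may share mice. The merged peaks were built from the lists of the groups. Of the 59 opening peaks the S+P C7 list held 49, the S+P C5 list 35, and the Naive and both N+P lists 0. Low levels in Naive and N+P and high levels in S+P C7 were thus largely fixed in advance.

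**Figure D4:**
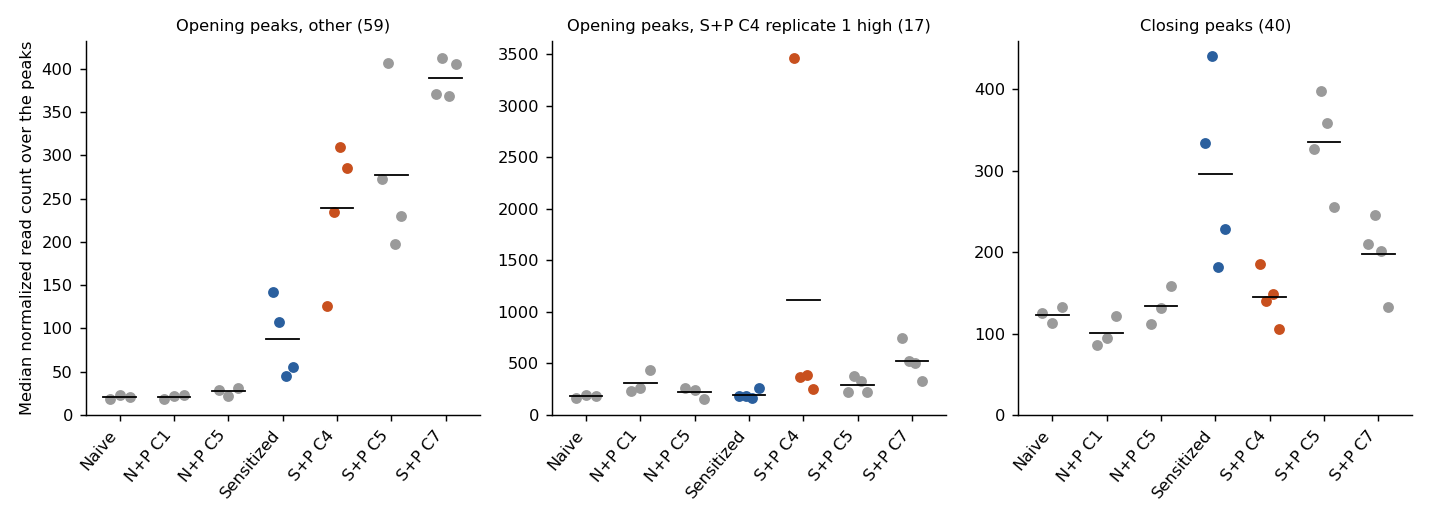
Median normalized read count over a set of peaks in each of the 25 libraries, by group, with a line at the group mean. The other 59 opening peaks are high in all 3 S+P sorts and lowest in Naive and N+P C1. Most of the 59 entered the merged peaks through the S+P C5 or C7 list and none through the Naive or N+P lists, which largely fixes that order. The 17 peaks stand out in 1 S+P C4 library at 3460. The 40 closing peaks are high in S+P C5 and in Sensitized replicates 1 and 2. Sensitized replicate 3 (182) lies beside S+P C4 replicate 1 (185).

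The called peaks were distal. Only 2 of 76 opening peaks lay within 1000 bp of a transcript start (2.63%, 95% Wilson interval 0.725 to 9.1) and 1 of 40 closing peaks (2.5%, 0.443 to 12.9), against 7670 of all 13527 (56.7%). They were a promoter of Eps8, with 140, 289, 347 and 488 in S+P C4 and 192, 150, 27.5 and 47.2 in Sensitized, one of Sfi1 that was high in S+P C4 replicate 1, and one of Stim2, a calcium sensor gene, with 194, 126, 215 and 120 against 349, 639, 144 and 199, all named after their values were seen. None of the 3 was called in the fit to the 8 libraries alone (DESeq2 adjusted p 0.216, 0.256 and 0.378). Introns held 30 opening and 20 closing peaks, and intergenic sequence 40 and 16. The median distance to a gene start was 42790 bp for the 59 opening peaks and 28214.5 bp for the closing peaks, against 26876 bp for all peaks outside promoters. Their GC content, at medians of 48.7% and 45.9%, was close to the 48.1% of all peaks outside promoters. The share of all counts that fell in promoter peaks was 66.6% ± 1.69 in S+P C4 and 65.9% ± 0.515 in Sensitized (SD, n = 4), which did not differ beyond the spread (difference 0.72 percentage points, two-sided exact permutation p = 0.429, where the smallest p possible is 0.0286).

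Letters of TCF/LEF, the family of Tcf7 and Lef1, and of NFAT, which calcium signaling activates, stood in more of the closing than of the 59 opening peaks. Of the 40 closing peaks 30.0% held CTTTGAA or CTTTGAT in the central 300 bases (Wilson interval 18.1 to 45.4), of the 59 opening peaks 5.08% (1.74 to 13.9), and of all peaks outside promoters 15.2% (14.3 to 16.1). NFAT letters stood in 16 of the 40 closing peaks (interval 26.3% to 55.4%) and 22.0% of the 59 opening peaks (13.4 to 34.1), against 25.5% outside promoters. The 17 opening peaks set aside held NFAT letters at 9 (52.9%), more often than the closing peaks, and all 76 opening peaks did so at 28.9%. In the central 500 bases the order was turned, with a wider gap for NFAT (22 of the 40 closing and 14 of the 59 opening peaks) than for TCF/LEF (16 and 8). RUNX letters stood in 57.5% of closing peaks (42.2 to 71.5) and 40.7% of the 59 opening peaks (29.1 to 53.4), against 40.6% outside promoters. NR4A letters stood in 5 of the 59 opening peaks (8.47%, 3.67 to 18.4), which include those printed above for Eps8l3, Gzma and Fasl, against 1.59% outside promoters (1.30 to 1.94), and in 2 of the 40 closing peaks. AP-1 letters stood in 25.4% of the 59 opening peaks (16.1 to 37.8) and in 6 of the 40 closing peaks (interval 7.06 to 29.1), against 15.9%. Of all 13527 peaks 8.99% held the TCF/LEF letters, 24.3% RUNX, 0.961% NR4A and 9.20% AP-1. The windows overlap in composition with all distal peaks, 13 motifs were read and none of these shares was tested. A match shows letters and not a bound factor.

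**Figure D5:**
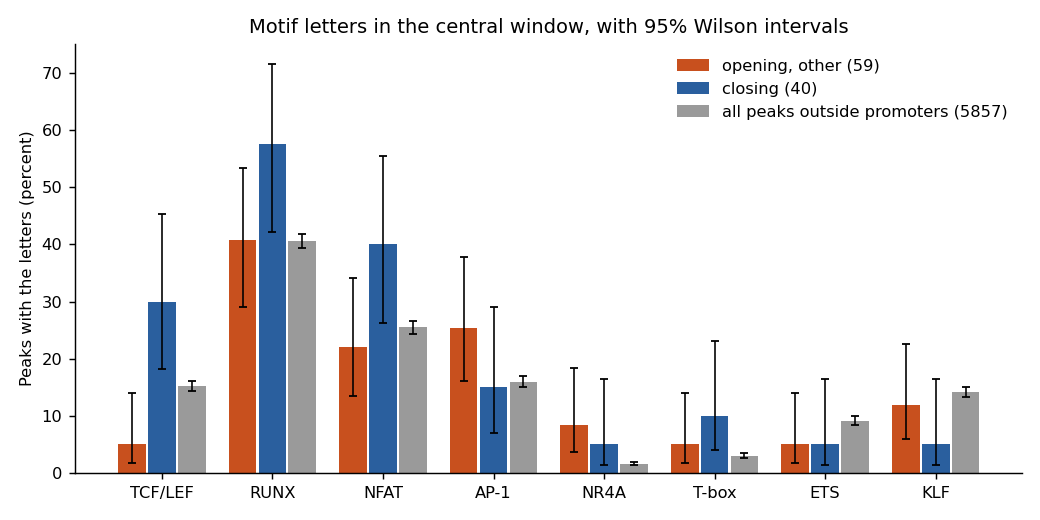
Share of peaks, in percent, whose central 300 bases hold the letters of each of 8 motifs, with 95% Wilson intervals, for the 59 opening peaks, the 40 closing peaks and 5857 peaks outside promoters. TCF/LEF letters are in 30.0% of closing and 5.08% of opening peaks.

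The same contrast in mice without a graft served as a reference. The interaction subtracts the log2 difference of N+P C1 from Naive from that of S+P C4 from Sensitized, and 150 of 12740 peaks with an adjusted p were called (1.18%), 126 of them higher and 24 lower. The call depended on single libraries and on the tool, with 0 calls by edgeR's quasi-likelihood test. At an unadjusted p under 0.05 there were 3320 peaks by edgeR and 3436 by DESeq2. The 4 peaks of smallest adjusted p in each direction include Shc4 (log2 difference 2.12, DESeq2 adjusted p 0.00514), where N+P C1 and Naive had means of 39.9 and 58.1. The Nrip1 intron peak, at a nuclear receptor corepressor, had 122, 160, 192 and 113 in S+P C4 and 232, 376, 210 and 243 in Sensitized, without overlap, and means of 95.9 in N+P C1 and 39.5 in Naive (log2 difference -2.08, DESeq2 adjusted p 0.00175). At the promoter of Icam2, an adhesion molecule gene, the S+P C4 mean was 364 ± 53.6 against 236 ± 57.2 in Sensitized (SD, n = 4). That log2 fold change of 0.63 was under the fold threshold. N+P C1 and Naive had means of 187 and 270, a log2 difference of -0.52. The interaction of 1.15 (DESeq2 adjusted p 0.00514) thus drew on a rise in one contrast and a fall in the other.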

How the data were processed

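ATAC-seq libraries of sorted TFGS were analysed from the table of counts that the authors deposited, which gives whole reads per merged peak and library with no normalization. Per the study's methods and the submitters' processing notes, the authors trimmed reads with cutadapt 3.4, aligned them to GRCm39 with Bowtie2 2.2.9, removed reads without a unique position and, with Picard 2.21.8, PCR duplicates, and called peaks per library with Genrich 0.6.1 in its mode for transposase cuts. Peaks that recurred in a group were merged over the 7 groups. The 7 deposited lists hold a q-value per peak and pool a group's libraries, so they carry no replicate error and were used only for membership. Unique mapping lowers counts in repeated sequence, and reads on unplaced contigs may have several sources.

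Groups were taken from the sample titles. DESeq2 1.42.0 in R 4.3.3 (Wald test, 1 fit to all 25 libraries with group as the only term, its own size factors, Benjamini-Hochberg adjustment over all peaks) gave the calls, with the study's thresholds of adjusted p under 0.1 and log2 fold change over 0.9. Normalized read counts are counts divided by size factors, and fold changes were not shrunk. Peaks were assigned to the nearest start of a protein-coding gene, and promoter peaks lay within 1000 bp of a transcript start. Motif letters were searched on both strands in 300 bp at the peak centre. Correlations used log2(normalized count + 1). Alternatives were edgeR 4.0.16, limma 3.58.1 with quality weights, other size factors, loess offsets, a mean count of at least 50, other thresholds, a replicate block, fits to the compared groups only, and each library left out. The script was tested on simulated data.

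Named peaks were up to 12 opening and 12 closing peaks of smallest adjusted p among called peaks whose groups did not overlap, every called peak nearest to a listed gene, the peak of smallest p at each of 12 fixed genes (Lag3 and Csf1 had none), and up to 4 interaction peaks per direction. One of these peaks is not reported here. The comparison, members and gene lists were chosen with earlier results of these data known. Labels do not say which libraries came from separate mice, so p-values measure the spread between these libraries. Wilson intervals cover counting error only. Files hold 0 columns of other samples.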

Additional observations from a re-analysis of the deposited data

Results flagged for a closer look

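Among 112 groups of 4 values, 10 held a library far from the other 3, and chance flags about 1 in 20 groups. S+P C4 replicate 1 was the distant library in 5 of them. It was high at the peaks near Gm8797 (3460 normalized read counts), Cdk8 (2320) and Limd1 (1630), low at the Satb1 peak (510), and highest in the share of counts that fell in the 30 peaks where it exceeded 3 times the other S+P C4 libraries (3.91%), a share for which those peaks were chosen. S+P C4 replicate 3 was low at the Tox peak (158) and high at the Stat3 peak (214). S+P C4 replicate 4 was low at the Apip peak (148), S+P C4 replicate 2 was low at the Gzmb peak (276), and Sensitized replicate 2 was high at the Odc1 peak (454).

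The difference between S+P C4 and Sensitized differed from that between N+P C1 and Naive, by the interaction term of DESeq2, at 150 peaks. The log2 differences of the 8 named ones were 2.12 at Shc4, 1.33 at Art2a, 1.15 at Icam2 and 0.91 at Smyd4, and -2.08 at Nrip1, -1.29 at Gm3604, -0.93 at Zfp971 and -0.91 at Prdm8. At Smyd4, Zfp971 and Gm3604 the difference between S+P C4 and Sensitized did not itself pass the test (DESeq2 adjusted p 0.174, 0.275 and 0.289).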

How the results depend on the processing

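The 116 calls fell to 40 in the fit to the 8 compared libraries and to 47 there with a replicate block, and became 917 with limma quality weights, 884 without the fold threshold and 539 without S+P C4 replicate 1 and Sensitized replicate 1. All 40 were among the 116, of which 8 got no adjusted p there. Leaving out 1 library gave 66 (without S+P C4 replicate 4) to 263 calls (without Sensitized replicate 1), with 234 without S+P C4 replicate 1, of which 99 were among the 116. Leaving single libraries out of the fit to the 8 libraries was an alternative added after the data were seen. There, leaving out S+P C4 replicate 1, 2, 3 or 4 gave 145, 23, 9 or 4 calls. Leaving out Sensitized replicate 1, 2, 3 or 4 gave 192, 9, 38 or 18. The other settings gave 80 (edgeR) to 136 calls (loess offsets). All 116 called peaks kept their direction in all 29 refits, which was largely fixed in advance. Some refits change only a filter or threshold, and all reuse libraries on which the 116 were chosen. Of the 36 called peaks among the 53 named ones, 4 stayed called in every refit.

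The interaction count of 150 was 0 by edgeR and in the fit to the compared groups only, where 2549 peaks had an unadjusted p under 0.05, 17 at an adjusted p under 0.05, 263 with the replicate block, 2 with it in the compared groups only, 2198 with limma quality weights, 1473 without the fold threshold and 1276 without the 2 libraries numbered 1. Leaving out 1 library gave 0 (without Naive replicate 1, Naive replicate 2 or Sensitized replicate 4) to 780 calls (without Sensitized replicate 1), with 591 without Naive replicate 3 and 465 without S+P C4 replicate 1. Counts of 14 or fewer came without Sensitized replicate 2 or 3, N+P C1 replicate 2 or 3 or S+P C4 replicate 3, and 58 without S+P C4 replicate 4. The cause was not tested.

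Deviations of same-numbered S+P C4 and Sensitized libraries from their group means correlated at -0.662, -0.0167, -0.759 and -0.374, so same-numbered libraries did not deviate alike. Whether the numbers mark a shared batch was not tested. The replicate block gave 129 calls in the fit to all libraries. Over the 2000 most variable peaks the median correlations were 0.752 within S+P C4, 0.537 within Sensitized and 0.725 between them. The promoter share difference ranged from 0.238 to 1.46 percentage points when 1 library was left out, with an exact p of at least 0.0571. The depth of 2430890 counts in S+P C4 replicate 1 limits the precision of low peaks.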

Other observations

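Further called peaks, chosen after their values were seen, add surface and signaling genes to those above. A peak 34461 bp from the start of Adrb1, the beta-1 adrenergic receptor gene, held 276, 454, 672 and 744 normalized read counts in S+P C4 and 348, 188, 67.7 and 86.8 in Sensitized (log2 fold change 1.64 ± 0.38, DESeq2 adjusted p 0.00318). A peak near Prex1, which activates Rac, held 214, 361, 526 and 515 against 270, 169, 148 and 152 (log2 fold change 1.14, DESeq2 adjusted p 0.00354). In both, Sensitized replicate 1 exceeded S+P C4 replicate 1. Both opening peaks near Ppp2r5c, a subunit gene of the phosphatase PP2A, were low in S+P C4 (7.61 to 54.4 and 20.3 to 122) beside means of 256 and 459 in S+P C5, and neither was called in the fit to the 8 libraries alone (DESeq2 adjusted p 0.272 and 0.284).

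On the closing side, a peak near Tnfsf18, the gene of the GITR ligand, held 112, 84.4, 134 and 89.4 against 299, 374, 108 and 140 (log2 fold change -1.14, DESeq2 adjusted p 0.0319). An intronic peak of Pik3r1, the regulatory subunit of PI3K, held 112, 63.6, 75.0 and 48.8 against 164, 196, 92.9 and 100 (log2 fold change -0.94, DESeq2 adjusted p 0.058). Sensitized replicates 1 and 2 were the highest of the 8 libraries at both, and neither was called in the fit to the 8 libraries alone (DESeq2 adjusted p 0.255 and 0.347). A peak in an exon of Dgkg, nearest to the start of Etv5, was even within Sensitized at 257, 358, 330 and 293 and held 225, 182, 96.2 and 134 in S+P C4 (log2 fold change -0.99, DESeq2 adjusted p 0.00546).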
